A study of Mus musculus with 6 samples.

Results

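The extracellular matrix genes described here encode the glycoproteins, laminins and proteoglycans that lie between cells, together with the proteoglycans of the cell surface. They were chosen from a list of 53 gene symbols matched to the gene names of a single comparison, and its file is referred to as the authors' deposited table. Of these, 44 were among its 16472 genes, and Lum, Fbln7, Fbn2, Eln, Mfap2, Mfap4, Lama4, Sdc3 and Gpc4 were not analysed here. The list was drawn up with earlier results of the same comparison known, so its values are a description and nothing is tested over it. HT22 is an immortalised mouse hippocampal line grown in serum-containing medium. AA147 is a small molecule known to activate ATF6, a regulator of the unfolded protein response, and the oxidative stress regulator NRF2. Cultures received AA147, at a concentration given in the labels as 10 mM, a unit that may be a slip and could not be checked, or DMSO as vehicle for 16 h, with 3 libraries per group. All 6 libraries came from 1 line, and the labels do not say whether replicates were separate cultures, so p-values measure only the spread between these samples, which may be technical.

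The numerator of the fold change is not named in the authors' deposited table. Fold changes are read here as AA147 over vehicle, and lower or higher means with AA147 under that reading. Each gene has a mean normalized count over the libraries, a log2 fold change, its standard error (SE) and, for 13597 genes, an adjusted p. A gene is called when that adjusted p is under 0.05. Values of single libraries were not analysed here. Where the mean of each group is given, it is implied by the overall mean and the fold change taken at face value with groups of equal size, and has no error of its own. In bulk samples, fewer cells of a type and less RNA per cell cannot be told apart.

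The matrix is built from fibres, sheets and soluble modulators. Small leucine-rich proteoglycans such as decorin bind collagen fibrils and control their width. Fibulins and fibrillins organise elastic fibres, laminins, nidogens and perlecan form basement membranes, and matricellular proteins such as osteopontin and the thrombospondins act on cells more than as scaffold. Such genes are typically strongest in mesenchymal cells, while mature neurons make a distinct perineuronal matrix.

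Most matrix genes were lower with AA147, and nidogen-1 went strongly the other way. Of the 38 members with an adjusted p per the authors' deposited table, 26 were called negative, which is 68.4%, against a background of 11.1% of all 13597 genes. Another 2 members, Nid1 and Gpc1, were called positive, against a background of 9.05% of all genes. Calls in either direction made up 73.7% of these members and 20.2% of all genes in the authors' deposited table. The median log2 fold change of the 38 members was -0.42, beside 0.0092 over all genes with an adjusted p per the authors' deposited table. Because the list was drawn up from this contrast, nothing is read from the gap to the background. The same holds for the counts of each role given below. A total of 9 members were called at a log2 fold change of -1 or lower in the authors' deposited table, where the background was 1.09%, and Nid1 alone was called at 1 or higher, where it was 0.787%. The members nearest the threshold were Agrn and Mgp on the called side, with adjusted p of 0.0133 and 0.0306, and Vcan and Thbs3 on the other, with 0.0657 and 0.129 in the authors' deposited table.

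Several markers of fibroblasts and mesenchymal cells were also lower. Of 14 neuronal markers, 4 were in the authors' deposited table, with Tubb3 at a mean of 1199, Syn1 at 562, Stmn2 at 6.24 and Slc17a7 at 3.93. The other 10, with Map2, Rbfox3 and Snap25 among them, were not analysed here. Tubb3 was called positive at 0.43 (SE of 0.092 with an adjusted p of 5.67e-05) per the authors' deposited table. Syn1 was not called at 0.13 (SE 0.13). Stmn2 and Slc17a7 were negative at -1.53 (SE 1.02) and -1.98 (SE 1.26) but had no adjusted p. Of 13 fibroblast and mesenchymal markers, 12 were in the authors' deposited table, led by Col1a2 at 254004 and Vim at 152806. Of the 11 with an adjusted p, 6 were called negative and 1 positive, with median -0.78 per the authors' deposited table. The background over all genes was 11.1% called negative and 9.05% called positive. The implied sum of this list was 825193 in vehicle and 460688 with AA147. Called negative were Col1a1, Col3a1, Col1a2, S100a4, Pdgfrb and Pdgfra, while Prrx1 was called positive at 0.23, and Vim at -0.08, Thy1 at -0.03 and Acta2 at 0.01 were not called in the authors' deposited table. The astrocyte list had 1 called gene, Slc1a3 at -1.30, and the microglial list Csf1r at 0.95 on a mean of 48.0 in the authors' deposited table. Oligodendrocyte and endothelial lists had 0 called genes and means of at most 28.8 in the authors' deposited table. The part of these shifts in the matrix values was not tested.

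**Figure D1:**
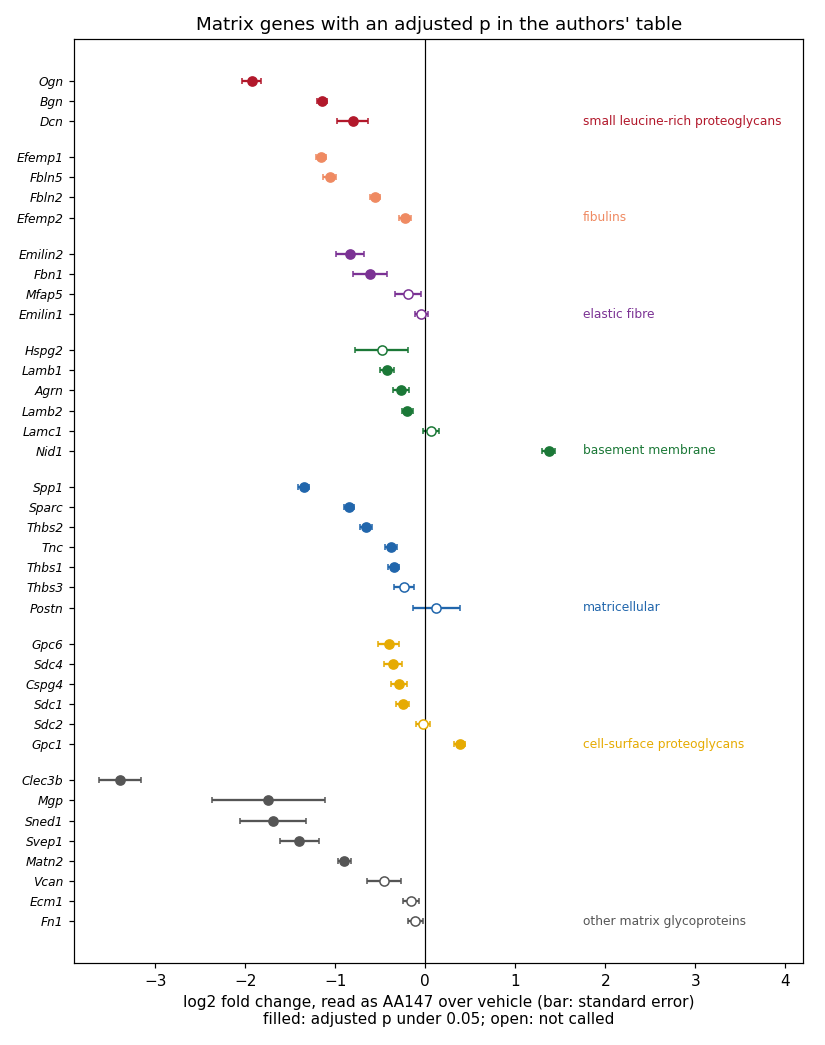
Log2 fold change (x axis, read as AA147 over vehicle) with its standard error for the 38 matrix genes with an adjusted p, one row per gene, coloured by role. Filled points were called at an adjusted p under 0.05. Small leucine-rich proteoglycans and fibulins lie left of 0 throughout, and Nid1 lies farthest right at 1.37. Gpc1 at 0.38, filled, and Postn and Lamc1, open, also lie right of 0.

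The other 6 members had means of at most 7.73 and no adjusted p per the authors' deposited table. These were Fmod, Fbln1, Nid2, Lama2, Lama5 and Vwa1, and they are not counted as called or uncalled. Of these, Fbln1 and Nid2 had an unadjusted p under 0.05 in the authors' deposited table, with fold changes of -5.55 (SE 1.52, mean 4.30) and -2.55 (SE 1.03, mean 6.62). At such means a fold change rests on few counts. Fmod, Lama2, Lama5 and Vwa1 had fold changes of -1.42, -0.99, 0.16 and 1.85 in the authors' deposited table, with SEs from 0.86 to 1.68.

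Put together, the 44 members made up 1.34% of the total of all means per the authors' deposited table. Their implied sum was 463542 normalized counts in the vehicle group and 361489 in the AA147 group, or 1.48% and 1.20% of all genes. Without Nid1 the implied sums were 439163 and 298448, a ratio of 0.680 in place of 0.780. By level per length, in mean normalized counts per kilobase of canonical transcript, Sparc at 23628 and Efemp1 at 20312 led the members, followed by Bgn at 9015, Nid1 at 7169 and Fn1 at 6505. Spp1 stood at 3110 per kilobase, and Clec3b and Ogn, with the largest called fold changes, stood at 116 and 118 per kilobase.

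**Figure D2:**
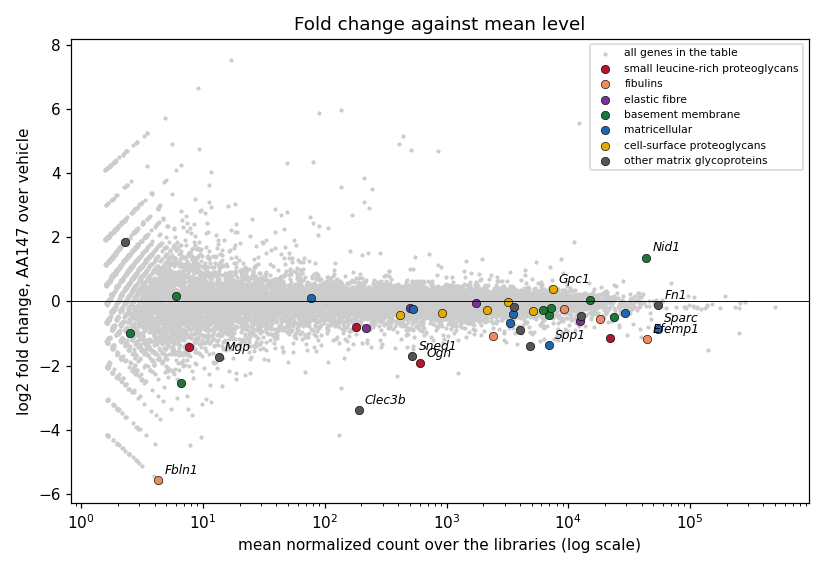
Log2 fold change (y axis) against the mean normalized count over the libraries (x axis, log scale). Grey points are all 16472 genes of the table and coloured points the 44 matrix genes by role. Abundant members such as Sparc and Efemp1 lie below 0, Nid1 lies above the cloud of genes of similar mean, and Fbln1 lies at a mean of 4.30 where the cloud is widest.

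The 4 members with the smallest adjusted p were Spp1, Efemp1, Bgn and Nid1, of which only Nid1 was positive. The sequences before their start sites are shown because they let the outlying gene be set beside genes of the opposite sign. They come from the RefSeq promoter table for mouse assembly GRCm38.p6, which differs from the mm9 build named for the counts, and hold the 250 bases before each start on the plus strand. They lie at chr5:104434861-104435110 for Spp1, at chr11:28852955-28853204 for Efemp1, at chrX:73483351-73483600 for Bgn and at chr13:13437352-13437601 for Nid1. For Spp1, which has 2 start sites in that table, the first is shown. Capitals mark matches on either strand to the letters TGANTCA (AP-1 type), GGAATG (TEAD type), TGACNNNGC (the core of the antioxidant response element bound by NRF2) and TATAAA, found in some core promoters. The TGANTCA and TGACNNNGC strings can overlap.
Spp1: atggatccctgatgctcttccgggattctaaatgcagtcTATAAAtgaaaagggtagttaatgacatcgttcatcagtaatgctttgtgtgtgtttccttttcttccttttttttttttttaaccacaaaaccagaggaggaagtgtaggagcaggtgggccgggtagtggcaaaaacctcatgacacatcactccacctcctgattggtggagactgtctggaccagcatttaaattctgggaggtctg
Efemp1: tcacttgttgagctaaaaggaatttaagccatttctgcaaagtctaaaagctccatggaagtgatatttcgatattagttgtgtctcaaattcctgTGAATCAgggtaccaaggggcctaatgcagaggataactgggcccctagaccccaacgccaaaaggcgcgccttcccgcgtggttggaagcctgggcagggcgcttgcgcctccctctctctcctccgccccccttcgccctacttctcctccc
Bgn: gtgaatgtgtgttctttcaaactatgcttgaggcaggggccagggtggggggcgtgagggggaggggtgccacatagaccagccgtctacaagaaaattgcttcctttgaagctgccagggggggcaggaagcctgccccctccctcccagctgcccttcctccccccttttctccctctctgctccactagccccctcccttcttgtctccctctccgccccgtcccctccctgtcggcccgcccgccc
Nid1: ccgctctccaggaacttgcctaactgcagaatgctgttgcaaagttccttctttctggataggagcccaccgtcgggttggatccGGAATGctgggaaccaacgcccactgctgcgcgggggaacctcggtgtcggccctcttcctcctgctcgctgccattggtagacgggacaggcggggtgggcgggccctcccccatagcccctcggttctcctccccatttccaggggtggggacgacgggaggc

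Each of Spp1, Efemp1 and Nid1 held 1 match and Bgn none. In Spp1 a TATAAA match began 211 bases before the start, in Efemp1 a TGANTCA match 154 bases before, and in Nid1 a GGAATG match 165 bases before. No pair among the 4 shared a match. The table held promoters for 31 of the 44 members, in 40 windows of 300 bases. The TGANTCA letters occurred in 5% of the members' windows and in 7.81% of all 32851 windows, with matches in Efemp1 and Ecm1. The GGAATG letters occurred in 10% and 14.7%, with matches in Nid1 and in Ogn, Emilin2 and Svep1, which were called negative. The TGACNNNGC letters occurred in 7.5% and 12.4%, with matches in Postn, Vcan and Sned1. The TATAAA letters occurred in 20% and 13.6%, in Ogn, Spp1, Postn, Tnc, Thbs2, Ecm1 and Svep1. A match is a string of letters and not a bound site.

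The small leucine-rich proteoglycans were lower with AA147. Each of the 3 with an adjusted p was called negative, beside 11.1% of all genes, with median -1.14 per the authors' deposited table. Bgn, encoding biglycan, had implied means of 30059 in vehicle and 13593 with AA147, and a log2 fold change of -1.14 (SE of 0.058 with an adjusted p of 1.03e-83) per the authors' deposited table. Ogn, encoding osteoglycin (mimecan), had the larger change at -1.93 (SE of 0.11 with an adjusted p of 7.84e-69) per the authors' deposited table, with implied means of 967 and 254. Dcn, encoding decorin, the close relative of biglycan, was at -0.81 (SE of 0.17 with an adjusted p of 6.18e-05) per the authors' deposited table. Its level per kilobase was 29.6, far below the 9015 of Bgn.

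Fibulins, short glycoproteins that bridge elastic fibres and cells, were lower by unequal amounts. Each of the 4 with an adjusted p was called negative in the authors' deposited table, beside 11.1% of all genes, with median -0.81. Efemp1, encoding fibulin-3, was at -1.16 (SE of 0.054 with an adjusted p of 1.48e-99) per the authors' deposited table, with implied means of 61015 and 27260. Fbln5, which brings lysyl oxidase-like enzymes to elastin, was at -1.06 (SE of 0.072 with an adjusted p of 1.84e-46) per the authors' deposited table. Fbln2 was at -0.56 (SE of 0.057 with an adjusted p of 1.49e-20) and Efemp2, encoding fibulin-4, at -0.22 (SE of 0.066 with an adjusted p of 0.00725) per the authors' deposited table. The implied loss therefore ran from 2.24-fold for Efemp1 to 1.16-fold for its paralog Efemp2.

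Elastic fibre genes were called negative in part. Emilin2, an elastin microfibril interface protein, was at -0.83 (SE of 0.16 with an adjusted p of 2.26e-06) per the authors' deposited table, with a mean of 218. Its relative Emilin1, with a mean of 1754, was at -0.04 (SE of 0.074 with an adjusted p of 0.759) per the authors' deposited table. Fbn1, encoding the microfibril backbone fibrillin-1, was called at -0.61 (SE of 0.19 with an adjusted p of 0.00785) per the authors' deposited table, with implied means of 15118 and 9883. Mfap5, a microfibril-associated glycoprotein, was not called at -0.20 (SE of 0.15 with an adjusted p of 0.385) per the authors' deposited table. The group thus had 2 of 4 members called, both negative, beside 11.1% of all genes, and median -0.40 per the authors' deposited table.

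Basement membrane genes contained the sharpest contrast. Nid1, encoding nidogen-1, the link between laminin and collagen IV networks, had implied means of 24379 in vehicle and 63040 with AA147. Its log2 fold change was 1.37 (SE of 0.070 with an adjusted p of 5.56e-82) per the authors' deposited table. Among the 1134 genes called positive at a mean of at least 100 in that table, Nid1 ranked 22 by fold change and 8 by p. The other basement membrane members were not called positive. Lamb1 was called at -0.42 (SE of 0.073 with an adjusted p of 2.01e-07), Lamb2 at -0.20 (SE of 0.059 with an adjusted p of 0.00641) and Agrn, encoding agrin, at -0.27 (SE of 0.088 with an adjusted p of 0.0133) per the authors' deposited table. Lamc1, the laminin gamma chain that binds nidogen, was at 0.06 (SE of 0.086 with an adjusted p of 0.690) per the authors' deposited table, a change smaller than its SE.

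Hspg2, encoding perlecan, was not called in the authors' deposited table at -0.48 (SE of 0.29 with an adjusted p of 0.267). The basement membrane genes had a median of -0.24 but a mean of 0.0091, which has the opposite sign. Their implied sum was 89572.5 in vehicle and 116779 with AA147, and without Nid1 it was 65194 and 53738. Laminins are trimers of an alpha, a beta and a gamma chain. Per kilobase of transcript, the mean normalized counts were 1198 for Lamb1, 1286 for Lamb2 and 1910 for Lamc1, but 0.523 for Lama5 and 0.259 for Lama2, the lowest of the 44 members. Lama3, from a list of related genes, had a mean of 12.1 in the authors' deposited table. Lama1 and Lama4 were not analysed here.

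**Figure D3:**
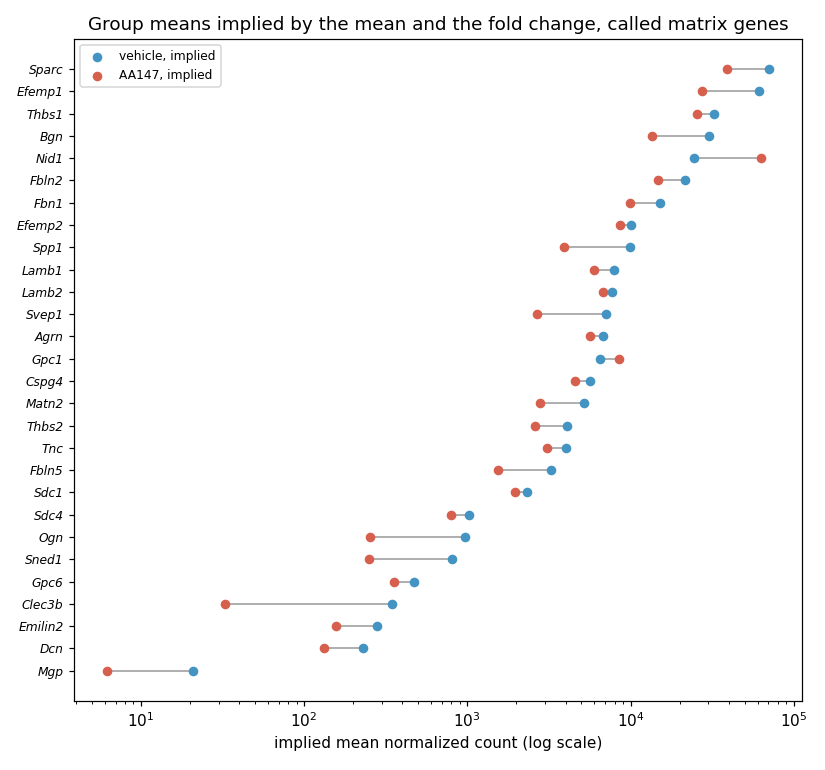
Mean normalized count in each group (x axis, log scale) implied by the overall mean and the fold change, for the 28 called matrix genes, ordered by the vehicle value. Blue points are vehicle and red points AA147, with no error of their own. Nid1 and Gpc1 are the genes whose AA147 point lies right of the vehicle point.

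The 7 matricellular genes had 5 negative calls, beside 11.1% of all genes, and median -0.38 per the authors' deposited table. Spp1, encoding the integrin ligand osteopontin, was at -1.35 (SE of 0.061 with an adjusted p of 3.95e-106) per the authors' deposited table, with implied means of 9963 and 3903. Sparc, encoding the collagen-binding protein osteonectin, was at -0.84 (SE of 0.056 with an adjusted p of 2.21e-49) per the authors' deposited table and fell from an implied 70041 to 39075. The thrombospondins were graded. Thbs2 was at -0.66 (SE of 0.067 with an adjusted p of 9.0e-21) and Thbs1, with a mean of 28949, at -0.35 (SE of 0.065 with an adjusted p of 1.65e-06) per the authors' deposited table. Thbs3 was not called at -0.24 (SE of 0.11 with an adjusted p of 0.129) per the authors' deposited table. Tnc, encoding tenascin-C, was called at -0.38 (SE of 0.067 with an adjusted p of 5.85e-07), and Postn, encoding periostin, was at 0.12 (SE 0.26, adjusted p 0.812, mean 76.9) per the authors' deposited table.

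Cell-surface proteoglycans, which comprise the heparan sulfate carriers of the syndecan and glypican families and the chondroitin sulfate proteoglycan Cspg4 (NG2), differed by at most 0.41 in size on the log2 scale. The called negative genes were Gpc6 at -0.41 (SE 0.12), Sdc4 at -0.36 (SE 0.096), Cspg4 at -0.29 (SE 0.089) and Sdc1 at -0.25 (SE 0.072) per the authors' deposited table, with adjusted p from 0.00221 to 0.00935. Gpc1, encoding the lipid-anchored glypican-1, was higher at 0.38 (SE of 0.062 with an adjusted p of 3.12e-08) per the authors' deposited table, with implied means of 6480 and 8446. Sdc2 was at -0.02 (SE of 0.074 with an adjusted p of 0.875) per the authors' deposited table. The implied sum of the 6 genes was 19140 in vehicle and 19327 with AA147.

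The remaining glycoproteins included the called member with the largest fold change. Clec3b, encoding the plasminogen-binding protein tetranectin, was at -3.39 (SE of 0.23 with an adjusted p of 5.03e-45) per the authors' deposited table, with implied means of 347 and 33.0. It ranked 2 by fold change among the 1396 genes called negative at means of 100 or more per the authors' deposited table. Svep1, a large adhesion protein, was at -1.40 (SE of 0.21 with an adjusted p of 1.97e-09) and Sned1, with many EGF-type repeats, at -1.69 (SE of 0.37 with an adjusted p of 7.76e-05) per the authors' deposited table. Matn2, encoding matrilin-2, was at -0.90 (SE of 0.072 with an adjusted p of 3.09e-33) per the authors' deposited table. Mgp, an inhibitor of calcification, was called at -1.74 (SE of 0.63 with an adjusted p of 0.0306) per the authors' deposited table, but on a mean of only 13.5.

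The scaffold gene Fn1, encoding fibronectin, did not pass the test at a mean of 54706. Its value was -0.11 (SE of 0.083 with an adjusted p of 0.385) per the authors' deposited table. Vcan, encoding the large hyaluronan-binding proteoglycan versican, was at -0.46 (SE of 0.19 with an adjusted p of 0.0657) and Ecm1 at -0.16 (SE of 0.088 with an adjusted p of 0.206) per the authors' deposited table. The 8 remaining glycoproteins with an adjusted p had 5 negative calls, beside 11.1% of all genes, and median -1.15 per the authors' deposited table.

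The precision was not alike for all members. The SE of each gene was set against the median of the 200 genes nearest to it in mean. Of the 36 members with a mean of at least 100, Fbn1, Vcan, Hspg2, Svep1 and Sned1 had an SE from 3.12 to 5.04 times that median, and the other 31 lay between 0.918 and 1.46. These 5 are the members with the longest transcripts at such means, from 9152 to 14502 bases, and the longest of the others has 8410. Among all 434 genes with a mean of at least 100 and a transcript of at least 9000 bases, 28.3% exceeded that median by a factor of 1.5 or more, and among all 10633 genes of such means 1.73% did. This limit and the length limit were chosen after the values were seen. Leaving those 5 out, 23 of 33 members were called negative and 2 positive in the authors' deposited table, with median -0.36. The SE of a fold change of -0.46 to -0.48 in Vcan and Hspg2 was 0.19 and 0.29, where Lamb1 with a change of -0.42 had 0.073 and was called.

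**Figure D4:**
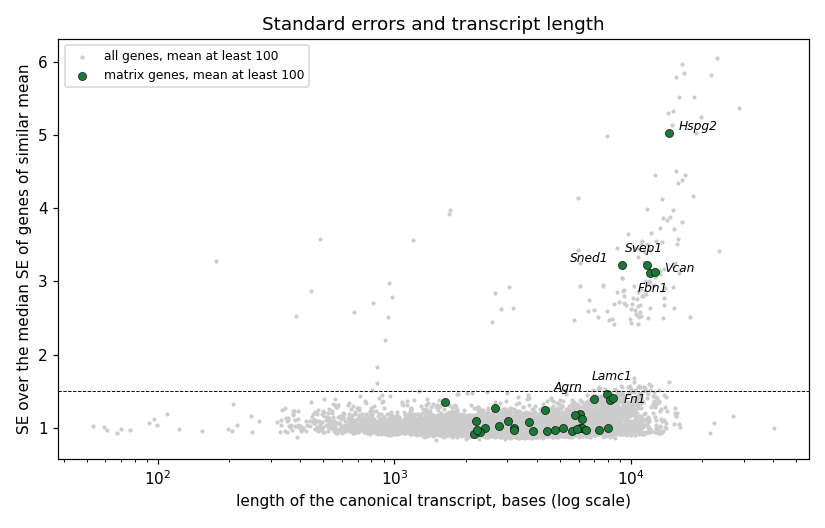
Standard error divided by the median over the 200 genes nearest in mean (y axis) against canonical transcript length (x axis, log scale) for genes with a mean of at least 100. Grey points are all such genes and green points the 36 matrix genes, and the dashed line marks 1.5. Hspg2, Svep1, Sned1, Vcan and Fbn1 lie above 3, and all other matrix genes lie under the line.

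Genes beside the members on the chromosome were examined for Nid1, Ogn, Fmod, Dcn, Spp1, Efemp1 and Bgn, chosen after their values were seen, in the gene order of the RefSeq table for GRCm38.p6. On one side of Nid1, each of the nearest 5 genes with a row was called positive in the authors' deposited table. These were Gpr137b at 0.72, Gm7040 at 5.17, and the proliferin genes Prl2c5 at 4.90, Prl2c2 at 4.91 and Prl2c3 at 5.57 in the authors' deposited table. Proliferin genes are near-identical copies whose single values are uncertain. On the other side, only Ggps1, the fifth, was called, at 0.34 (SE of 0.11 with an adjusted p of 0.0110), and Lyst, B3galnt2 and Tbce lay between 0.13 and 0.18 and the nearest gene, Gm30836, at -1.01 (SE 0.65) in the authors' deposited table. Of the 10 neighbours, 6 were called positive for Nid1, against 2 for each of Spp1, Efemp1 and Fmod, 1 for each of Ogn and Bgn, and 0 for Dcn. Called negative were 2 neighbours for each of Ogn, Dcn and Bgn, 1 for each of Spp1 and Fmod, and 0 for Nid1 and Efemp1. Over all genes, 9.05% were called positive and 11.1% negative. Whether position has a part in the Nid1 value was not tested.

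Some small leucine-rich proteoglycan genes lie in clusters. Omd, next to Ogn, was called at -0.84 (SE of 0.28 with an adjusted p of 0.0183), and Aspn after it had -1.46 with an SE of 1.90 at a mean of 1.77 and no adjusted p per the authors' deposited table. Prelp, the nearest listed gene before Fmod, was called at -1.43 (SE of 0.14 with an adjusted p of 2.82e-23) per the authors' deposited table. Btg2, the nearest listed gene after Fmod, was at 0.37 (SE of 0.20 with an adjusted p of 0.185) per the authors' deposited table. The genes beyond Omd and Aspn, which were Cenpp, Ippk and Bicd2, lay between 0.0013 and 0.07 in the authors' deposited table and were not called. The libraries were not stranded, so reads from stretches where exons of different genes overlap cannot be told apart by strand. Overlap was taken here from whole gene spans, and whether exons overlap was not examined. Ogn overlaps Cenpp, which had a mean of 290 in the authors' deposited table, and Nid2 overlaps a gene with a mean of 1081 beside its own 6.62. Vcan, Ecm1 and Matn2 overlap genes with means of at most 36.2.

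**Figure D5:**
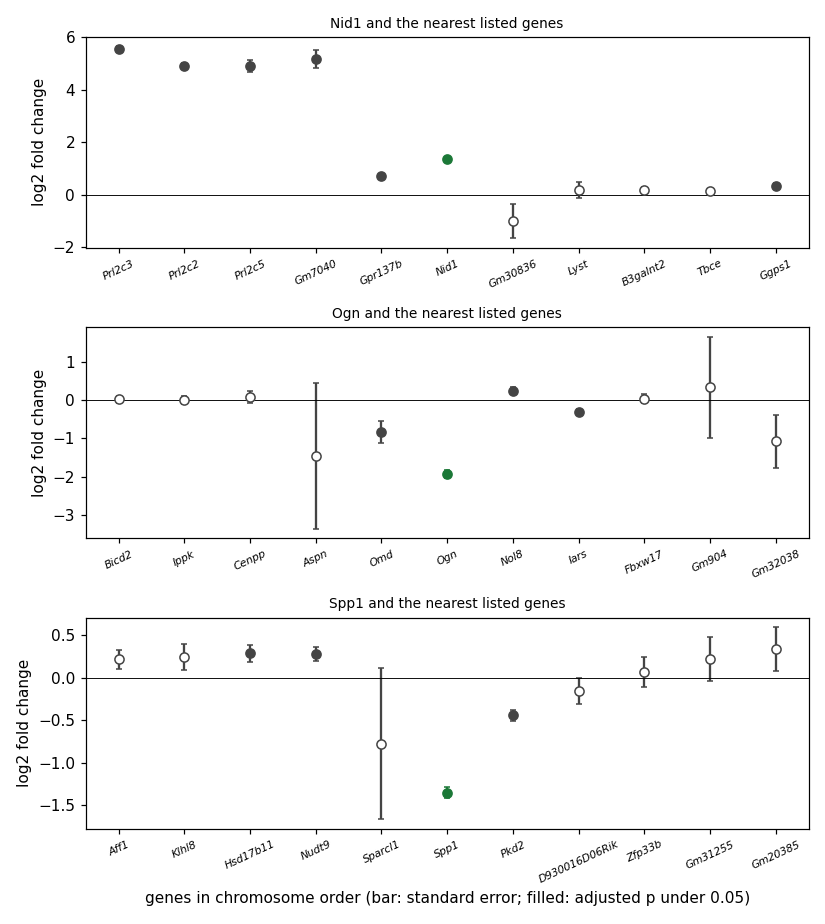
Log2 fold change with standard error (y axis) of Nid1, Ogn and Spp1 (green) and of the 5 listed genes on either side (dark grey) in chromosome order (x axis). Filled points were called. All genes left of Nid1 are positive, whereas the genes around Ogn and Spp1 lie on both sides of 0. Filled there are Omd, Iars and Pkd2 below 0 and Nol8, Nudt9 and Hsd17b11 above it. Aspn, Sparcl1 and Gm32038 lie well below 0 but are open.

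Relatives of the members that were not on the list were called in both directions. Of 69 such genes, 28 had an adjusted p per the authors' deposited table, and 9 were called negative and 5 positive, with median -0.06. Over all genes, 11.1% were called negative and 9.05% positive. Among the called genes at a mean of at least 100 were Prelp, above, and Ltbp1, a binding protein of latent TGF-beta, at 0.71 (SE of 0.078 with an adjusted p of 8.62e-18) per the authors' deposited table. Its relative Ltbp3, named after its value was seen, had the opposite sign at -0.54 (SE of 0.066 with an adjusted p of 4.26e-14) per the authors' deposited table. Aebp1, with a mean of 22450, and Crim1, with 6007, were not called at -0.09 and -0.02 in the authors' deposited table.

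Among enzymes that build the sugar chains of proteoglycans, most genes were not called, and most calls were negative. Over 4 lists, the last of them hyaluronan enzymes and receptors, 37 genes had an adjusted p per the authors' deposited table. Of these, 8 were called negative and 2 positive, with median -0.04. That is 27.0% in either direction, beside 20.2% of all genes. Negative calls made up 21.6% of these genes and 11.1% of all genes, and positive calls 9.05% of all genes. For the linkage region and its precursors, 2 of 8 were called negative, Ugdh at -0.24 and Papss1 at -0.23, while Xylt2, which starts the chain, was at 0.0044 (SE 0.072) per the authors' deposited table. For heparan sulfate, 1 of 10 was called, the 6-O-sulfotransferase gene Hs6st1 at -0.41 (SE of 0.099 with an adjusted p of 0.000366), and the polymerase genes Ext1 and Ext2 were at -0.08 and -0.12 without a call in the authors' deposited table. For chondroitin and dermatan sulfate, 4 of 12 were called negative and 1 positive. These included Csgalnact1, which starts chondroitin chains, at -0.78 (SE of 0.12 with an adjusted p of 1.04e-08), and Dse, the dermatan sulfate epimerase, at -0.38 (SE of 0.074 with an adjusted p of 8.26e-06) per the authors' deposited table. Chst12 was called at -0.34 and Chpf at 0.20 in the authors' deposited table. For hyaluronan, 1 of 7 was called negative, Tmem2 at -0.32, and 1 positive, the receptor gene Cd44 at 0.20 in the authors' deposited table.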

How the data were processed

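RNA from HT22 cells, with 3 samples per group, was measured by mRNA sequencing with non-stranded libraries, per the labels' protocols. The authors deposited 1 comparison of AA147 and vehicle, holding for each gene the mean normalized count (a signal in the table's own scale), the log2 fold change and its SE, the test statistic (a score), the p-value and the adjusted p-value, per the file headers. DESeq2 and build mm9 are named in the submitters' processing notes. The aligner, the counter, the annotation and the DESeq2 version are not given in the sources used here. Depth per library is unknown, so no interval on counts is given.

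All directions rest on reading the fold change as AA147 over vehicle. The score was the ratio of fold change to SE, and the adjusted p matched Benjamini-Hochberg over 13597 genes, both within 1e-06 as checked on the deposited values. The 2875 genes without an adjusted p all had means of at most 8.41. No test of single libraries was possible.

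Members, gene lists and markers were chosen with earlier results of these data known. The rule for genes with full statistics took the up to 4 members of each role with the smallest adjusted p, the 2 nearest the threshold on either side and, of each related list, up to 3 called genes with the largest change at a mean of at least 100 and at most 2 abundant genes without a call. Beyond that rule, the other members with an adjusted p are described in the same way so that each is accounted for, and Ltbp3 and Chpf were chosen after their values were seen. Of the related genes, 1 that the rule names is not reported here. Transcript lengths are canonical lengths from GENCODE for another build, held for 44 members and 95.7% of genes with a mean of at least 100. Gene order and promoters are from RefSeq on GRCm38.p6. The scripts were tested on simulated data. Tools were Python 3.11.15, pandas 2.3.3, SciPy 1.17.1, statsmodels 0.14.6 and matplotlib 3.10.9.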

Additional observations from a re-analysis of the deposited data

How the results depend on the processing

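Of the summary values of the members and roles, 83 alternatives stayed within the limits set for a change and 11 moved. With a log2 fold change of at least 1 also required, 9 members were negative and 1 positive, and with Bonferroni adjustment 16 were negative. An adjusted p under 0.01 gave 24 negative and 2 positive calls, and recomputing Benjamini-Hochberg over all genes with a p-value gave 27 and 2. Without Nid1, an alternative added after seeing the data, 26 were negative and 1 positive, and without the 5 members of wide SE, also added after seeing the data, 23 and 2. The mean in place of the median was -0.61 for the members, -1.29 for small leucine-rich proteoglycans, 0.0091 for the basement membrane, which turned its sign, -0.53 for matricellular genes and -0.16 for cell-surface proteoglycans. At a mean of at least 100, the median was -0.52 for matricellular genes and -0.90 for the other matrix glycoproteins. Subtracting the median of genes of similar transcript length brought Vcan past the threshold at -0.52 (adjusted p 0.0316), and no single member reversed in 76 recomputed values. No paired analysis was possible because values of single libraries were not used here. For the same reason other normalizations, another tool, the replicate block and leaving out each library were not run.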

Other observations

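Wide standard errors formed a separate group across the genes of the authors' deposited table. For the 10633 genes at means of 100 or more, the SE was divided by the median over the 200 genes nearest in mean. This ratio was 2.4 or more for 146 genes and between 1.7 and 2.4 for 2 genes. These limits were chosen after the values were seen. Over the 36 matrix genes of such means, Spearman's correlation of the ratio with transcript length was 0.56, across genes that share the same 6 libraries and are not independent replicates.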
